A study of Mus musculus with 24 samples.

Results

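Ribosome biogenesis and nucleolar genes encode the proteins that transcribe ribosomal RNA in the nucleolus, cut and modify it, and fold it into the 2 ribosomal subunits. The members were taken by gene symbol from the probes that carry exactly 1 symbol: names starting with Nop, Nol or Utp and a number, Nolc1, Rrp and a number, Polr1 and Mphosph, without Nol4, and 16 further genes by name, of which those on the arrays are given below. This gave 52 genes of 6970 in all, on 81 of 9684 probes with 1 symbol. Slide type 1 held 42 of them among 3838 genes, and slide type 2 held 23 among 4075, with 13 genes on both. The choice went by symbol and used no measured value, but it was made with earlier results of these data known.

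The heat-shocked group was mouse embryos in culture that were held at 43 °C for 15 min, put back at 37 °C and taken 1 h later, and the control group was untreated embryos kept at 37 °C. The labels used here name neither strain nor age, nor do they say whether the RNA of several embryos was pooled. Total RNA of both groups was hybridised together on 24 arrays with 2 channels each, from 3 numbered treatments on 2 slide types with different probes. A treatment has 4 arrays per slide type, 2 forward arrays (heat-shocked RNA in channel 1) and 2 swapped arrays (in channel 2). The 2 of the same order carry the same slide code, 1 of them with the suffix B. Whether these 2 are separate slides is not known here. The 4 arrays were averaged to 1 log ratio, and n is 3 treatments throughout. Nothing says that the treatments came from separate litters, so p-values speak for these 3 treatments alone, and so few leave wide margins. The test used (limma, eBayes) draws the variance of each gene towards a value shared over its slide type, so p-values reflect both. On slide type 1 Rrp9 had SD 0.01 and a 95% interval from −0.24 to 0.003, and Dkc1 had SD 0.04 and −0.33 to −0.09. Since the channel orders were averaged first, the gap between them does not enter the p-values of the reported setting.

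Values are the authors' log ratios, turned so that heat-shocked RNA counts as if in channel 1, with the median over all probes of an array set to 0. The base of the log and the numerator are not stated: 1 unit is 2-fold for base 2 and 2.72-fold for a natural log, and positive means higher in heat-shocked embryos only if the ratio is channel 1 over channel 2. The labels do not settle this direction. A sign turned on all arrays would exchange the sides and leave sizes and counts as given. Apart from this, single arrays of the same channel order went as low as r = −0.34 against each other on slide type 2. The treatment values, averaged over both orders, had r from 0.82 to 0.90 there and from 0.70 to 0.80 on slide type 1. For orientation, the highest of all genes on the positive side were 2 heat shock protein genes, Hsph1 on slide type 1 (2.28 ± 0.50, SD) and Hspb1 on slide type 2 (2.23 ± 0.05). Since the tables used here give ratios only, the level of a gene, and the level of markers of the cell types of an embryo, cannot be given. Of the erythroid, yolk sac and neural markers, 6 were measured on slide type 1, and 3 on slide type 2, where all were erythroid. No heart marker was measured. The 1 call was for 1 of 2 neural markers, on the negative side of slide type 1. In whole embryos a change in the share of a cell type and a change of RNA per cell cannot be told apart.

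As background, RNA polymerase I copies the ribosomal DNA into 1 long precursor. Small nucleolar ribonucleoproteins, which pair short guide RNAs with proteins, methylate and pseudouridylate it, a large assembly called the small subunit processome folds and cuts its front part, and other factors mature the part that forms the large subunit. The nucleolus is built around these steps and is known to respond to heat and other stresses, and many of the genes are known targets of the growth regulator Myc.

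Most of these genes, like most of all genes, lay close to the centre of the arrays 1 h after heat, and a few stood apart. On slide type 1, 6 of 42 members were called on the negative side (limma, adjusted p under 0.05), which is 14.3%, against 5.65% of all genes, and 1 member was called on the positive side, which is 2.38%, against 5.73%. On slide type 2, 8 of 23 members were called on the negative side, or 34.8%, against 31.9% of all genes, and 4 on the positive side, or 17.4%, against 18.5%. The counts on slide type 2 are thus near the share of all genes. The median log ratio was −0.04 over the members of slide type 1, against −0.04 over all genes there, and −0.07 over the members of slide type 2, against −0.05 over all genes. Within 0.35 units of 0 lay 41 of the 42 members of slide type 1, against 3681 of its 3838 genes, and 22 of the 23 members of slide type 2, against 3690 of its 4075 genes. Below 0 in every treatment were 35.7% of the members of slide type 1, against 31% of all genes there. On slide type 2 these shares were 47.8% and 43.6%.

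These counts depend on how the arrays are centred. With arrays centred on probes that have 1 symbol, slide type 1 had 1 negative and 2 positive calls among the 42 members, against 3.1% and 6.62% of all genes, and slide type 2 had 3 negative and 5 positive calls among 23, against 21.1% and 30.7%. Without centring, which adds 0.30 units to every gene of slide type 1 and 0.08 on slide type 2, there were 0 negative and 2 positive calls on slide type 1, against 0.13% and 6.85% of all genes, and 0 negative and 1 positive on slide type 2, against 1.6% and 1.87%. A test against 0.58 units in place of 0 called 0 members on slide type 1 (limma's treat; 0 also at an unadjusted p under 0.05), against 0.391% of all genes, and 1 of 23 on slide type 2, against 0.785%. That 1 member was Rrp36.

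**Figure D1:**
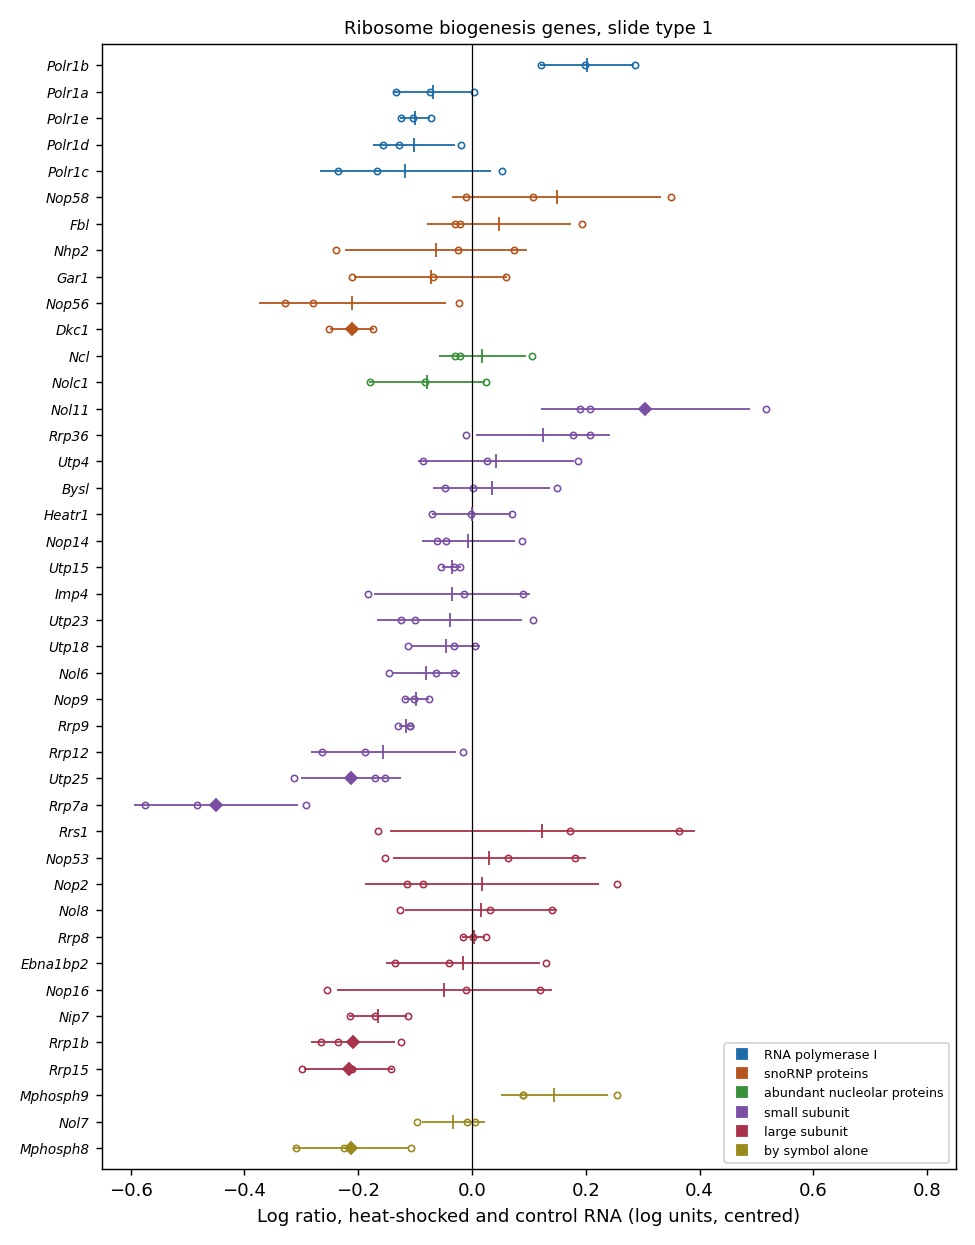
Log ratios of the 42 members on slide type 1, in log units, by role in ribosome assembly. Open circles are the 3 treatments, bars are the mean ± SD, and a diamond marks adjusted p under 0.05; Rrp7a stands lowest at −0.45 and Nol11 highest at 0.30, and most others straddle or lie near 0.

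The 5 members that follow mark the ends of the range. Rrp36, a small subunit processome factor, was far above every other member on slide type 2, with 1.07, 1.37 and 1.34 in treatments 1, 2 and 3 (1.26 ± 0.16, SD, n = 3, limma adjusted p = 2.47e-10). It ranked 11th from the positive end among 4075 genes. All 3 treatments were above 1 unit, and both channel orders were positive, at 1.53 on forward and 0.99 on swapped arrays. The other probe for this gene, on slide type 1, gave −0.01, 0.21 and 0.18 (0.12 ± 0.12, adjusted p = 0.26), so the probes of the 2 slide types did not show the same size. Whether the probe of slide type 2 is correctly assigned to Rrp36 was not tested, and the value rests on that 1 probe. Rrp7a, which acts in assembly of the small subunit, was at the other end on slide type 1, with −0.48, −0.57 and −0.29 (−0.45 ± 0.14, adjusted p = 0.00189), the 19th from the negative end among 3838 genes. Without centring it had −0.15 and no call. Next came Nol9, Nol11 and Nop9, which are described below with their groups.

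The neighbours of Rrp36 in the genome did not share its value. Klhdc3 is the next protein-coding gene on the side of the Rrp36 promoter, and it had −0.29, −0.44 and −0.21 on slide type 2 (−0.31 ± 0.12, adjusted p = 0.000698). Cul7, a cullin on the other side, had −0.48, −0.59 and −0.35 there (−0.47 ± 0.12, adjusted p = 1.75e-05). Both lay on the negative side in every treatment, whereas Rrp36 lay on the positive side. Poldip3, the next protein-coding gene to Rrp7a, had −0.16, −0.32 and −0.20 on slide type 2 (−0.23 ± 0.08, adjusted p = 0.00465). Rrp7a itself was measured on slide type 1 only, where Cyb5r3, the gene after Poldip3, had 0.08 ± 0.14 (adjusted p = 0.53). Klhdc3, Cul7 and Poldip3 were called on a slide type where 31.9% of all genes were called on the negative side.

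The promoters of these 5 genes are shown because their members stand at the ends of the values on either side. Each runs from 250 bases before to 50 bases after a start of the gene, from RefSeq on GRCm38.p6: chr17:46674257-46674556 on the minus strand for Rrp36 (the first by position of its 2 promoters there), chr4:152039071-152039370 on the plus strand for Nol9 (likewise of 2), chr11:107189332-107189631 on the minus strand for Nol11, chr15:83122752-83123051 on the minus strand for Rrp7a and chr14:55745443-55745742 on the plus strand for Nop9. Capitals mark 3 motifs on either strand: the E-box CACGTG that Myc and related factors bind, TTCNNGAA, which is part of a heat shock element, and CGGAAG, bound by ETS factors. In Rrp36 the match to TTCNNGAA overlaps a reversed CGGAAG.
Rrp36: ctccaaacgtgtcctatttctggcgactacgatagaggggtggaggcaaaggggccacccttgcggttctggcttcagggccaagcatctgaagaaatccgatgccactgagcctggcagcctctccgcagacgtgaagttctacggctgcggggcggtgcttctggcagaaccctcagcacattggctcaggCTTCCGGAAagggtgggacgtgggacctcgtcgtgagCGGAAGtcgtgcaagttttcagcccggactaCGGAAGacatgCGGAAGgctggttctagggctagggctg
Nol9: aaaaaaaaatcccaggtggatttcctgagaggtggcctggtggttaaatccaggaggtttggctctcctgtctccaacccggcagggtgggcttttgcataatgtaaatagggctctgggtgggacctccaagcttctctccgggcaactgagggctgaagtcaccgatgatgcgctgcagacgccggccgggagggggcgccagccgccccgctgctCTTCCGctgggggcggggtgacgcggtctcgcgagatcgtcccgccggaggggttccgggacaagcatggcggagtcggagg
Nol11: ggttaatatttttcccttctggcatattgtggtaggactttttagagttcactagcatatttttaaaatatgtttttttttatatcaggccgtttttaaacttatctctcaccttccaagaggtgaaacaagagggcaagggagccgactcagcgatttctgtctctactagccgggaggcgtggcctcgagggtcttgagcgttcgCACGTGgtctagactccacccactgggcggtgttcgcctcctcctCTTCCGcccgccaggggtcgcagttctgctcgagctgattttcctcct
Rrp7a: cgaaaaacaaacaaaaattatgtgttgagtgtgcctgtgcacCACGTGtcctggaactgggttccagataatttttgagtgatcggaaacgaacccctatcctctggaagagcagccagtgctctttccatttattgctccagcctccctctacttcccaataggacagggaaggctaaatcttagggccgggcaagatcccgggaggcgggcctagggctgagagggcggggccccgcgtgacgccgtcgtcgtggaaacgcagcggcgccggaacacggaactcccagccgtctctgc
Nop9: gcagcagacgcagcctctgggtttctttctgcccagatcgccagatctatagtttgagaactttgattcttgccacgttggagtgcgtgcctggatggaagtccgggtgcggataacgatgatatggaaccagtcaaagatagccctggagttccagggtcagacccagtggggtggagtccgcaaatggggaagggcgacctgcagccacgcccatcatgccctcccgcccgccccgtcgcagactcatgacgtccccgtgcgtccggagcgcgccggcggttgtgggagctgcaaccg
Over the 44 members with a promoter, 18.2% held CACGTG, against 8.09% of the 27025 genes in the table, 11.4% held TTCNNGAA, against 9.6%, and 59.1% held CGGAAG, against 18.8%. The 8 members with CACGTG were Imp4, Nol11, Nop2, Pes1, Rrp7a, Utp18, Utp25 and Utp4, which include the highest and the lowest member of slide type 1. TTCNNGAA was found in Bysl, Gar1, Rrp1, Rrp15 and Rrp36. A match describes the letters of this window only, and binding was not measured. The table's genes include those without a protein, so the shares compare unlike sets.

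**Figure D2:**
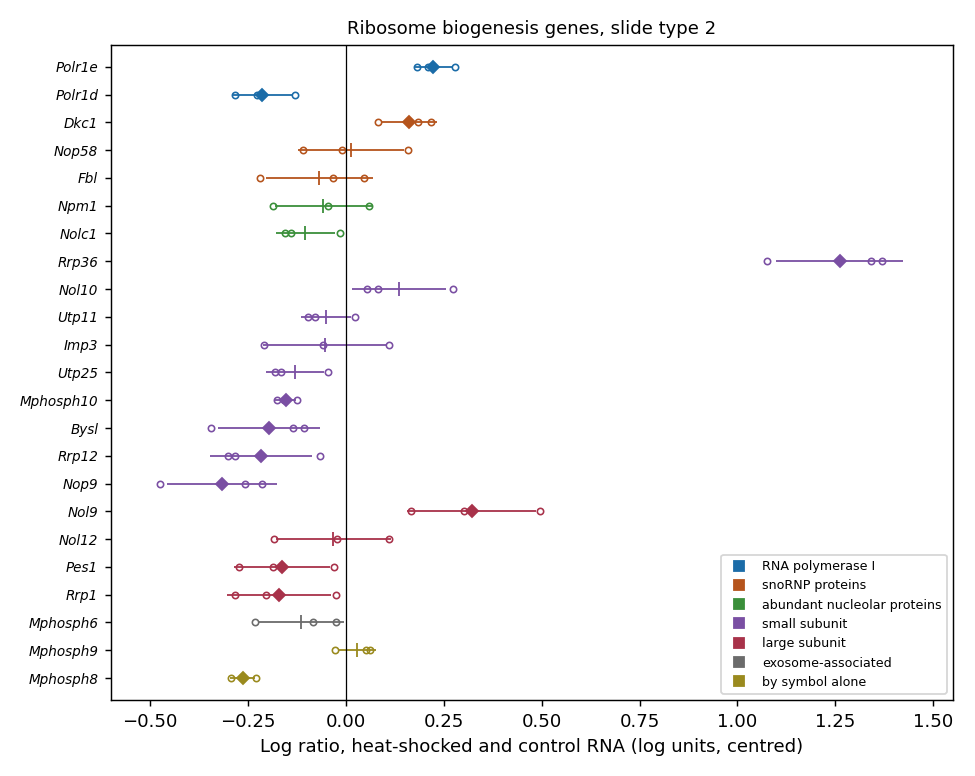
Log ratios of the 23 members on slide type 2, in log units, by role. Open circles are the 3 treatments, bars the mean ± SD and diamonds adjusted p under 0.05; Rrp36 stands alone at 1.26 and Nop9 is lowest at −0.32.

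RNA polymerase I subunits showed small values of both signs. On slide type 2 limma called 1 of 2 positive and 1 negative (50% each, against 18.5% and 31.9% of all genes). On slide type 1 it called 0 of 5, against 11.4% of all genes, and 1 of the 5, Polr1b, had an unadjusted p under 0.05. This gene, which encodes the second largest subunit, had 0.12, 0.29 and 0.20 (0.20 ± 0.08, adjusted p = 0.0519). Polr1a, the largest subunit, had −0.07 ± 0.07 (adjusted p = 0.518), and Polr1c, shared with RNA polymerase III, −0.12 ± 0.15 (adjusted p = 0.331). Polr1d, also shared with RNA polymerase III, was on the negative side in every treatment of both slide types. Its values were −0.23, −0.28 and −0.13 on slide type 2 (−0.21 ± 0.08, adjusted p = 0.00693) and −0.16, −0.13 and −0.02 on slide type 1 (−0.10 ± 0.07, adjusted p = 0.322). On slide type 2 Polr1d had 0.04 on forward and −0.47 on swapped arrays. Polr1e, a subunit of the enzyme's initiation module, lay on opposite sides of 0, with 0.21, 0.18 and 0.28 on slide type 2 (0.22 ± 0.05, adjusted p = 0.00455), the same side in both channel orders (0.23 and 0.21), and −0.12, −0.07 and −0.10 on slide type 1 (−0.10 ± 0.03, adjusted p = 0.303).

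Proteins of the small nucleolar ribonucleoproteins gave 1 negative call of 6 on slide type 1 and 1 positive call of 3 on slide type 2, and both calls were the same gene. These are 16.7%, against 5.65% of all genes, and 33.3%, against 18.5%. Dkc1, the pseudouridine synthase dyskerin, had −0.21, −0.17 and −0.25 on slide type 1 (−0.21 ± 0.04, adjusted p = 0.0347) and 0.18, 0.08 and 0.22 on slide type 2 (0.16 ± 0.07, adjusted p = 0.0293). No treatment overlapped between the 2 probes, and the probe of slide type 2 had 0.65 on forward and −0.33 on swapped arrays. Without centring the value of slide type 1 was 0.09. Fibrillarin, Fbl, the methyltransferase of the box C/D particle, had −0.03, −0.02 and 0.19 on slide type 1 (0.05 ± 0.13, adjusted p = 0.72) and −0.03, −0.22 and 0.05 on slide type 2 (−0.07 ± 0.14, adjusted p = 0.37). Its 95% intervals ran from −0.09 to 0.19 and from −0.20 to 0.06. Nop58, a core protein of the same particle, had 0.11, −0.01 and 0.35 on slide type 1 (0.15 ± 0.18, adjusted p = 0.248) and −0.01, −0.11 and 0.16 on slide type 2 (0.01 ± 0.14, adjusted p = 0.865).

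Fbl and Nop58 were thus lowest in treatment 2 on slide type 2 and highest in treatment 3 on both slide types. Nop56, the partner of Nop58, had −0.33, −0.28 and −0.02 (−0.21 ± 0.16, adjusted p = 0.085). The box H/ACA proteins Gar1 and Nhp2 had −0.07 ± 0.13 (adjusted p = 0.547) and −0.06 ± 0.16 (adjusted p = 0.64). Gar1 had 0.20 on forward arrays, the one setting run in which it passed the test, and −0.35 on swapped arrays.

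The abundant nucleolar proteins gave no call in limma, with 0 of 2 on each slide type, and 0 had an unadjusted p under 0.05. Of all genes, 11.4% were called on slide type 1 and 50.4% on slide type 2. Nucleolin, Ncl, which binds precursor RNA and ribosomal DNA chromatin, was on 4 probes of slide type 1 and had −0.03, −0.02 and 0.11 (0.02 ± 0.08, adjusted p = 0.899), with probes from −0.11 to 0.15. Nucleophosmin, Npm1, a histone and ribosome chaperone, was on 2 probes of slide type 2, at −0.04 and −0.07, and had −0.04, −0.19 and 0.06 (−0.06 ± 0.12, adjusted p = 0.446). The 95% interval was −0.11 to 0.15 for Ncl and −0.19 to 0.07 for Npm1. Nolc1, a scaffold of the nucleolus that binds small nucleolar ribonucleoproteins, had −0.18, −0.08 and 0.02 on slide type 1 (−0.08 ± 0.10, adjusted p = 0.471) and −0.14, −0.16 and −0.02 on slide type 2 (−0.10 ± 0.08, adjusted p = 0.145). The 2 probes of Nolc1 on slide type 2 disagreed: one had −0.39, −0.41 and −0.16 and the other 0.12, 0.10 and 0.12.

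Factors of the small subunit were the largest group, and held both the highest and the lowest members of slide type 1 and of slide type 2. Of 16 such genes of slide type 1, 2 were called on the negative and 1 on the positive side (12.5% and 6.25%, against 5.65% and 5.73% of all genes). Of 9 of slide type 2, 4 were called negative and 1 positive (44.4% and 11.1%, against 31.9% and 18.5% of all genes). Nol11, which in human cells takes part both in transcription of ribosomal DNA and in processing of its RNA, was the positive call of slide type 1, with 0.21, 0.52 and 0.19 (0.30 ± 0.18, adjusted p = 0.0234). Treatment 2 was the highest, and without it the value was 0.20 with no call. Nol11 had 0.54 on forward and 0.07 on swapped arrays.

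On the negative side of slide type 1, beside Rrp7a, was Utp25, a processome component, with −0.31, −0.17 and −0.15 (−0.21 ± 0.09, adjusted p = 0.0451). Its 2 probes there were at −0.34 and −0.08, and the probe on slide type 2 gave −0.16, −0.05 and −0.18 (−0.13 ± 0.07, adjusted p = 0.0702). All 3 treatments were below 0 on both slide types, and only slide type 1 passed the test, a difference that was not tested. Without centring Utp25 had 0.09 on slide type 1.

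Nop9, an RNA-binding factor needed in yeast for the small subunit RNA, was the lowest member of slide type 2, with −0.22, −0.48 and −0.26 (−0.32 ± 0.14, adjusted p = 0.000798), and had −0.07, −0.12 and −0.10 on slide type 1 (−0.10 ± 0.02, adjusted p = 0.31). Its value on slide type 2 came from the swapped arrays, at −0.75, while the forward arrays had 0.12. Rrp12, which in yeast helps to export the precursors of the subunits, had −0.28, −0.30 and −0.07 on slide type 2 (−0.22 ± 0.13, adjusted p = 0.00902) and −0.02, −0.26 and −0.19 on slide type 1 (−0.16 ± 0.13, adjusted p = 0.16). Both probes of Rrp12 were below 0 in every treatment. Bystin, Bysl, a factor of late small subunit maturation, had −0.11, −0.35 and −0.14 on slide type 2 (−0.20 ± 0.13, adjusted p = 0.0157), over 2 probes at −0.21 and −0.18, and 0.00, 0.15 and −0.05 on slide type 1 (0.03 ± 0.10, adjusted p = 0.791). Mphosph10, a partner of Imp3 and Imp4 in the processome, had −0.18, −0.16 and −0.13 (−0.15 ± 0.03, adjusted p = 0.0323), and 0.05 on forward arrays alone. Its partners did not pass, with −0.05 ± 0.16 for Imp3 on slide type 2 (adjusted p = 0.504) and −0.04 ± 0.14 for Imp4 on slide type 1 (adjusted p = 0.801).

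Heatr1, Nol6, Nop14, Rrp9, Utp4, Utp15, Utp18 and Utp23 on slide type 1, and Nol10 and Utp11 on slide type 2, did not pass either. Their means on slide type 1 ran from −0.12 for Rrp9 to 0.04 for Utp4. Rrp9, a protein of the particle that guides the first cuts, had the narrowest spread of these, at −0.13, −0.11 and −0.11 (−0.12 ± 0.01, adjusted p = 0.22). Nol10, whose yeast counterpart belongs to the processome, had 0.08, 0.05 and 0.27 (0.14 ± 0.12, adjusted p = 0.0713). Heatr1, a large processome protein, was at 0.00 ± 0.07 (adjusted p = 0.998), and its 95% interval ran from −0.13 to 0.13. Nol6 had −0.40 on forward and 0.24 on swapped arrays, opposite in order to most members.

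Among factors of the large subunit, 2 of 10 genes of slide type 1 and 2 of 4 of slide type 2 were called negative, and 0 and 1 positive (limma; 0 and 1 also at an unadjusted p under 0.05). The negative shares were 20% and 50%, against 5.65% and 31.9% of all genes, and rest on few genes. Rrp15 had −0.21, −0.14 and −0.30 (−0.22 ± 0.08, adjusted p = 0.0382) and Rrp1b, a nucleolar relative of Rrp1, −0.23, −0.27 and −0.13 (−0.21 ± 0.07, adjusted p = 0.0437). Rrp1 itself was on slide type 2, at −0.20, −0.28 and −0.02 (−0.17 ± 0.13, adjusted p = 0.0317). All 3 genes were below 0 in every treatment, as were 31% of all genes of slide type 1 and 43.6% of slide type 2. Rrp15 and Rrp1b, however, had 0.09 and 0.10 without centring, and Rrp1 had 0.29 on forward and −0.63 on swapped arrays.

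Pes1, the pescadillo protein, which works in a trimer with Bop1 and Wdr12, had −0.19, −0.27 and −0.03 (−0.16 ± 0.12, adjusted p = 0.036) as the mean of 3 probes that disagreed. One probe had −0.35, −0.50 and −0.14 and another −0.30, −0.48 and −0.15. The third had 0.09, 0.16 and 0.21, on the positive side in every treatment, and taking it alone as the first probe of the gene turned Pes1 to 0.15 with a call (adjusted p = 0.04). Nol9, a polynucleotide kinase that acts on the precursor of the large subunit RNA, was the positive call, with 0.50, 0.17 and 0.30 (0.32 ± 0.17, adjusted p = 0.000951). Both channel orders of Nol9 were positive, at 0.38 and 0.26.

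The large subunit genes without a call were Ebna1bp2, Nip7, Nol8, Nop2, Nop16, Nop53, Rrp8 and Rrs1 on slide type 1 and Nol12 on slide type 2. Nip7, which joins the precursor of the large subunit, was below 0 in all treatments (−0.17 ± 0.05, adjusted p = 0.0904). Rrs1, which brings the small RNA of the large subunit into the particle, had the widest spread of all members of slide type 1, with 0.36, −0.17 and 0.17 (0.12 ± 0.27, adjusted p = 0.443). Nop2, a methyltransferase of the large subunit RNA, had −0.09, −0.11 and 0.25 (0.02 ± 0.21, adjusted p = 0.93). Treatment 3 was alone on the positive side for Nop2, and treatment 2 alone on the negative side for Rrs1.

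A last set was found by name. Mphosph8, a reader of methylated histones in gene silencing and not a ribosome factor, was the one member called on the same side of both slide types. It had −0.31, −0.22 and −0.11 on slide type 1 (−0.21 ± 0.10, adjusted p = 0.0473) and −0.29, −0.27 and −0.23 on slide type 2 (−0.26 ± 0.03, adjusted p = 0.00141). The forward arrays of slide type 2 gave 0.11 and the swapped ones −0.63, and on slide type 1 it had 0.09 without centring. Mphosph9, a centriole protein, had 0.09, 0.25 and 0.09 on slide type 1 (0.14 ± 0.09, adjusted p = 0.161), over 2 probes at −0.02 and 0.31, and 0.06, −0.03 and 0.05 on slide type 2 (0.03 ± 0.05, adjusted p = 0.687). Mphosph6, which binds the RNA exosome, had −0.11 ± 0.11 (adjusted p = 0.123), and Nol7, a nucleolar protein, −0.03 ± 0.06 (adjusted p = 0.784).

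**Figure D3:**
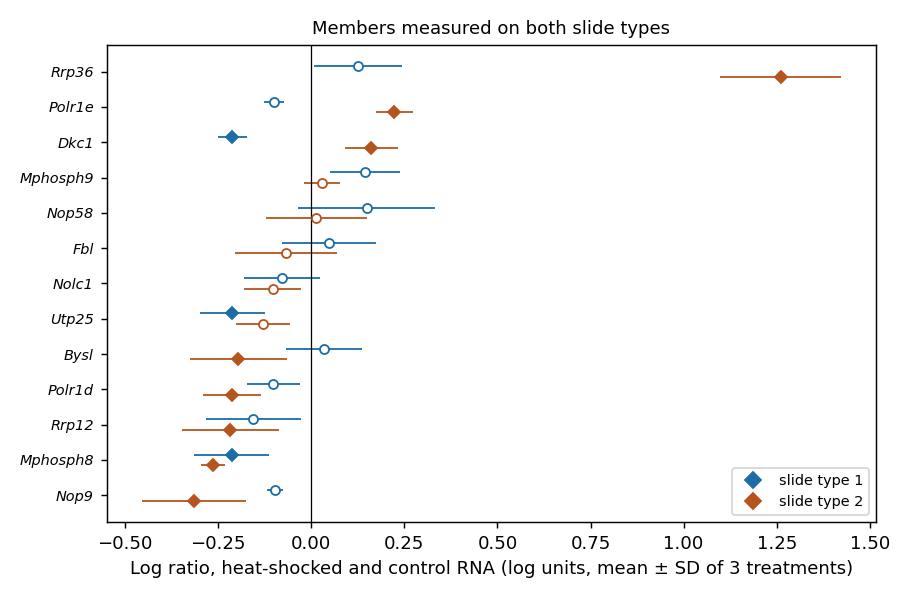
The 13 members with probes on both slide types, as mean ± SD of 3 treatments in log units, slide type 1 in blue and slide type 2 in orange, with filled diamonds for adjusted p under 0.05. Rrp36 differs most in size (0.12 and 1.26), Dkc1 and Polr1e change side, and Mphosph8 lies at −0.21 and −0.26.

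Of the 13 members on both slide types, 6 had a mean below 0 on both, 3 above 0 on both and 4 unlike signs. Calls on either side were made for 3 of them on slide type 1, where 11.4% of all genes were called, and for 8 on slide type 2, where 50.4% were. The same side was called on both for 1 gene, Mphosph8, and opposite sides for 1 gene, Dkc1. The share of all genes called on both slide types is not given here, so these counts cannot be read as particular to the members. The slide types were hybridised from the same numbered treatments, so they are not independent samples, and a difference between their probes was not tested.

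The channel order moved with the members' values. The median of the members of slide type 1 was 0.05 on forward and −0.11 on swapped arrays, against −0.01 and −0.07 over all genes. On slide type 2 the members' medians were 0.12 and −0.30, against −0.04 and −0.12 over all genes. The forward value was the higher one in 36 of 42 members of slide type 1 (85.7%, against 65% of all genes) and in 22 of 23 of slide type 2 (95.7%, against 60.6%). Of the 12 calls on slide type 2, 6 had the same sign in both orders (50%, against 61.9% of the calls over all genes). These 6 were Bysl, Nol9, Pes1, Polr1e, Rrp12 and Rrp36. All 7 calls among the members of slide type 1 had the same sign in both (100%, against 98.2% of the calls over all genes). The part of the dyes or of the order of hybridisation in these values was not tested.

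**Figure D4:**
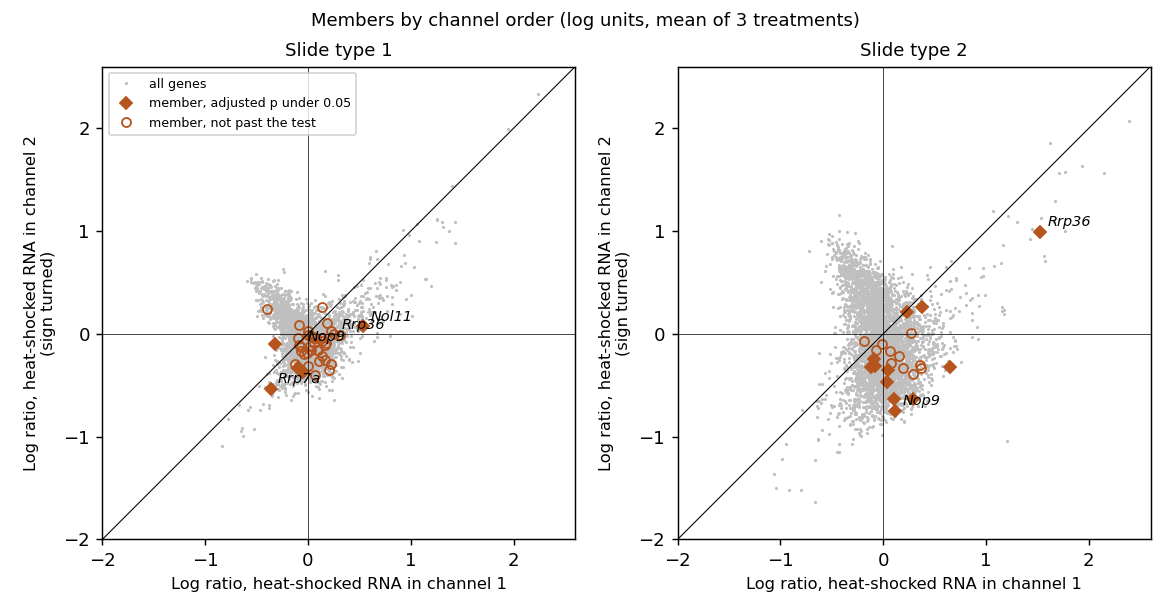
Mean log ratio of each gene over 3 treatments on forward arrays (x) and on swapped arrays with the sign turned (y), in log units, for all genes (grey) and members (orange, filled diamonds for adjusted p under 0.05). Equal values lie on the diagonal; Rrp36 and Rrp7a lie out along it, and 22 of 23 members on slide type 2 lie below it.

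Treatments also differed. On slide type 2 the members had a median of −0.08 in treatment 1, −0.18 in treatment 2 and 0.02 in treatment 3, against −0.06, −0.08 and −0.01 over all genes. Treatment 2 was the lowest in 18 of 23 members (78.3%, against 58.4% of all genes), and treatment 3 the highest in 17 of 23 (73.9%, against 46.9%). The members' medians on slide type 1 were −0.06, −0.10 and −0.01, against −0.03, −0.04 and −0.05. The median SD over treatments was 0.10 for the members and 0.09 for all genes on slide type 1, and 0.12 and 0.09 on slide type 2. Among the members that did not pass the test, the 95% bound farthest from 0 lay at a distance of 0.364 units on slide type 1 and 0.265 on slide type 2.

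Of 124 other genes of the pathway, listed by function with earlier results of these data known, 90 were measured. On slide type 1, 5 of 62 were called on the negative side (8.06%, against 5.65% of all genes) and 5 on the positive side (8.06%, against 5.73%). On slide type 2, 17 of 46 were called on the negative side (37%, against 31.9%) and 5 on the positive side (10.9%, against 18.5%). Their median log ratios were −0.04 on slide type 1 and −0.07 on slide type 2, against −0.04 and −0.05 over all genes.

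Among these, Gnl3, the nucleolar GTPase nucleostemin, was on the negative side of both slide types, with −0.42, −0.54 and −0.21 on slide type 1 (−0.39 ± 0.17, adjusted p = 0.00584) and −0.56, −0.80 and −0.48 on slide type 2 (−0.61 ± 0.17, adjusted p = 2.43e-06). All 6 values were below 0, and both channel orders were negative on both slide types. Without centring Gnl3 had −0.09 and no call on slide type 1. There it also lost its call without treatment 1 and with swapped arrays only. Ubtf, which recruits RNA polymerase I to its promoter, had −0.49, −0.36 and −0.26 on slide type 2 (−0.37 ± 0.11, adjusted p = 0.000163), with −0.08 on forward and −0.66 on swapped arrays. Pno1, a small subunit assembly factor, had −0.44, −0.54 and −0.35 (−0.44 ± 0.10, adjusted p = 2.41e-05), with −0.25 and −0.64 likewise. The exosome subunit Exosc8 had −0.31 ± 0.07 (adjusted p = 0.00043) and the methyltransferase Emg1 −0.27 ± 0.09 (adjusted p = 0.00151), with 0.01 and 0.07 on the forward arrays.

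On the positive side was Riok3, an atypical kinase of pre-ribosomes, with 0.61, 0.60 and 0.61 on slide type 2 (0.61 ± 0.01, adjusted p = 5.63e-07), positive in both orders (0.86 and 0.35). On slide type 1 Riok3 had −0.05, 0.03 and −0.19 (−0.07 ± 0.11, adjusted p = 0.536). Wdr75, a processome protein, had 0.40, 0.77 and 0.60 on slide type 1 (0.59 ± 0.18, adjusted p = 0.000587) but −0.19, −0.39 and −0.12 on slide type 2 (−0.23 ± 0.14, adjusted p = 0.00666), so its 2 probes were called on opposite sides. Noc2l had 0.34 ± 0.09 (adjusted p = 0.00489), Wdr46 0.26 ± 0.09 (adjusted p = 0.0183), and Rbm34 0.35 ± 0.06 (adjusted p = 0.00291) over 2 probes at −0.10 and 0.80. Rpf2, the partner of Rrs1, was called on opposite sides too, at −0.24 ± 0.02 on slide type 1 (adjusted p = 0.0167; 0.06 without centring) and 0.25 ± 0.06 on slide type 2 (adjusted p = 0.00217) over 2 probes at −0.17 and 0.68, with 0.54 on forward and −0.04 on swapped arrays.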

How the data were processed

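Total RNA of heat-shocked and control mouse embryos was measured on 24 arrays of 2 channels, 12 per slide type. The authors deposited 1 value table per slide type, with 7680 probes and 0 missing values, whose values are log ratios of the channels and are used here as a score; the labels used here state no base, numerator, background correction or normalization. The sign was turned on arrays with heat-shocked RNA in channel 2, per the labels, and the median of each array was set to 0. Arrays of a treatment were averaged with equal weight for both channel orders. Gene values are means of all probes with that 1 symbol, from the platform annotation. Tests used limma 3.58.1 in R 4.3.3 (lmFit with an intercept, eBayes, Benjamini-Hochberg over all 3838 or 4075 genes of a slide type, threshold 0.05). On simulated data with 200 changed probes of 7680, 100 of 100 changes of 0.5 units were found, and 100 of 100 of 1 unit. False calls numbered 24 with the settings of slide type 1 and 7 with those of slide type 2. Changes below 0.5 units, where all called members but Rrp36 lie, were not simulated. Every member is named. Values in each treatment are given for called members and those on both slide types, and of other pathway genes the 6 with the smallest p per slide type are named. Poldip3, Cyb5r3, Klhdc3 and Cul7, and the further values by treatment of members outside that rule, were chosen after their values were seen. The members and lists were chosen with earlier results of these data known. Promoters came from RefSeq (GRCm38.p6) and figures from matplotlib 3.10.9. Spot intensities were not used here. 13 other settings were tried.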

Additional observations from a re-analysis of the deposited data

How the results depend on the processing

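Counts are of calls, first on the positive, then on the negative side. Shares of all genes are given above for the reported settings, the other ways of centring and the test against 0.58 units only. The share of all genes called changes with the setting, so the counts below show dependence on processing and no trait of the members. In the settings as reported, members had 1 and 6 on slide type 1 and 4 and 8 on slide type 2, and other pathway genes 5 and 5, and 5 and 17. The robust prior left all 8 counts as they were. With centring on probes with 1 symbol the members had 2 and 1, and 5 and 3, and the other genes 7 and 2, and 8 and 11. Without centring the members had 2 and 0, and 1 and 0, and the other genes 7 and 0, and 1 and 1. With forward arrays only (heat-shocked RNA in channel 1) the members had 5 and 3, and 1 and 0, and the other genes 11 and 2, and 1 and 0; with swapped arrays only (in channel 2), 0 and 2, and 0 and 0, and 1 and 1, and 0 and 0. With arrays of the slide code's suffix the members had 0 and 1, and 3 and 8, and the other genes 2 and 1, and 3 and 10; without it 1 and 3, and 3 and 5, and 6 and 4, and 5 and 15. The first probe of each gene gave 1 and 4, and 5 and 8, and 5 and 2, and 5 and 17. Taking the channel orders as separate values, and the treatment as a random block, gave 2 and 6, and 4 and 9, and 7 and 7, and 5 and 17, with estimated correlations of −0.40 and −0.86 between the orders of a treatment. Against 0.58 units the members had 0 and 0, and 1 and 0, and the other genes 0 and 0, and 0 and 0.

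When each treatment was left out in turn, the members' counts ranged over 0 to 1 and 1 to 5 on slide type 1, and 2 to 5 and 4 to 7 on slide type 2. Those of the other genes ranged over 2 to 3 and 0 to 6, and 2 to 8 and 12 to 15. On slide type 1 the members had 1 negative call without treatment 1 or without treatment 2, and of the 7 calls 1 was kept in each. Rrp36 on slide type 2 lost its call in 1 setting that tests against 0 (swapped arrays only, 0.99), and Rrp7a in 2 (without centring, −0.15, and swapped arrays only, −0.54).

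Among the members and the other pathway genes with the 6 smallest p per slide type, called values turned to the other side, or came to be called there, as follows; other pathway genes were not followed one by one. Without centring, on slide type 1, Dkc1 had 0.092, Mphosph8 0.090, Rrp15 0.087, Rrp1b 0.095, Utp25 0.092 and Rpf2 0.059. With forward arrays only, on slide type 2, Mphosph10 had 0.050, Mphosph8 0.11, Nop9 0.12, Polr1d 0.040, Rrp1 0.29, Emg1 0.068 and Exosc8 0.0078, and on slide type 1 Gar1 had 0.20. With swapped arrays only, on slide type 2, Dkc1 had −0.33 and Rpf2 −0.036. With the first probe, Pes1 had 0.15. The causes were not tested. Each array holds heat-shocked and control RNA, so a treatment gives 1 ratio, which is itself the comparison within a pair. The test of these ratios against 0 thus keeps the pairing. No signal over background is known for these arrays, so a dim probe cannot be told from an unchanged gene.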

Other observations

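Further probes carry a member's symbol beside another gene's and entered no value above. The probe annotated to Ebna1bp2 and D4Ertd617e on slide type 2 had 0.72, 0.09 and 0.38 in treatments 1, 2 and 3 (0.40 ± 0.31, SD, n = 3, limma adjusted p over probes = 0.00678), whereas the probe of Ebna1bp2 alone on slide type 1 had −0.14, −0.04 and 0.13. The probe of Utp3 and Sdc4 on slide type 1 had −0.25, −0.39 and 0.06 (limma adjusted p over probes = 0.144), and that of Nol7 and Ranbp9 −0.04, 0.08 and −0.06 (limma adjusted p over probes = 0.972). Which of the genes each probe measures was not tested.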
